A study of Drosophila melanogaster with 3 samples.

Results

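Internal alternative promoters are start sites that lie inside a gene, downstream of its most upstream annotated start, and give shorter or otherwise different transcripts of the same gene. The regions described here were the crp binding sites at such starts. A member was a peak in the authors' reproducible (IDR) list on dm6 with its summit at most 500 bp from the start of a protein-coding transcript, where the nearest start lay more than 500 bp downstream of the most upstream start of that gene. Summits within 500 bp of starts of 2 genes on opposite strands were left out. By this rule 524 of the 5460 IDR peaks were members (9.60%), and they lay at 476 start sites of 411 genes. The chromatin came from 3 biological replicates of whole embryos of mixed sex, aged 0 to 24 h, of a transgenic fly line making crp fused to GFP at the C-terminal end, and was precipitated through the GFP. All 3 replicates belonged to the same group, carried the same transgene and were sheared to 200 to 800 bp, so that no treatment or genotype was compared and a mixture of stages and tissues was measured. No source used here gives whether the tagged crp was added to the native gene or replaced it, and no untagged control was analysed.

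The gene cropped (crp) encodes a basic helix-loop-helix protein of the AP-4 family. Proteins of this class bind DNA as dimers at short palindromes called E-boxes, and the E-box of the AP-4 family is CAGCTG. Core promoters in flies fall into broad types. Promoters of widely expressed genes often carry the DNA replication-related element (DRE), bound by DREF, or the motif of the zinc finger factor M1BP, whereas many developmentally regulated promoters carry GAGA repeats, bound by the GAGA factor encoded by Trl. Genes with alternative promoters can use a separate promoter type at each start.

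Sequences around the summits of the strongest members mostly carried the E-box. The 9 sequences below are from the 20 members of highest IDR signal that were found among the strongest peaks of every replicate, and were chosen because they hold the site outside annotated untranslated exons. Each is read 5′ to 3′ on the strand of its gene, from the RefSeq copy of dm6, and spans up to 50 bp on either side of the summit. Capitals mark CAGCTG. The windows were chr2L:7042280-7042358 for milt, chr2L:8156922-8157022 for PAPLA1, chr2L:2885223-2885323 for NTPase, chr2L:6673864-6673963 for CG34310, chr3L:11553517-11553617 for Mob2, chr2L:19587146-19587225 for Lar, chrX:15323470-15323570 for Top1, chr3R:5463329-5463429 for PEK and chr2L:12436366-12436466 for eRF3. The genes PAPLA1, NTPase, Mob2 and PEK lie on the minus strand and the others on the plus strand.
milt: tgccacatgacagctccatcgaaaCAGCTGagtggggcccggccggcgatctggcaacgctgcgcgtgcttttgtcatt
PAPLA1: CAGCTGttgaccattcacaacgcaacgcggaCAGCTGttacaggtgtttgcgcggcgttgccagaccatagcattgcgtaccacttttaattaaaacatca
NTPase: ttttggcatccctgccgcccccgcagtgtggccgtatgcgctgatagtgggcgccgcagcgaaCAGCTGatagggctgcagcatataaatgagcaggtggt
CG34310: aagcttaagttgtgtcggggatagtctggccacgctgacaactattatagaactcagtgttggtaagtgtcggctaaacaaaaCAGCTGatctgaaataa
Mob2: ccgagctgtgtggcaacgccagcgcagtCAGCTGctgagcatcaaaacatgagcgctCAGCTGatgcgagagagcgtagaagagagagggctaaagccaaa
Lar: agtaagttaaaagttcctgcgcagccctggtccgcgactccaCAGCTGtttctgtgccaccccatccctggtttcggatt
Top1: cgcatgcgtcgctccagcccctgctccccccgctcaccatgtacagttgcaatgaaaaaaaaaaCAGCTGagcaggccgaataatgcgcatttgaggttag
PEK: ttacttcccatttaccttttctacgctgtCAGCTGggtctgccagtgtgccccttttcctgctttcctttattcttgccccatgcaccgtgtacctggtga
eRF3: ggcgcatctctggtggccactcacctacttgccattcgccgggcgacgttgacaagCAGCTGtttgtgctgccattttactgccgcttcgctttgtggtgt

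PAPLA1 and Mob2 held 2 sites in the printed window and the other 7 genes held a single site. The window of Mob2 lay 455 bp upstream of its internal start, that of eRF3 274 bp and that of PEK 259 bp, so that these summits stood away from the core promoter. In milt, CG34310, Lar, NTPase and Top1 the summit lay 29 to 71 bp upstream of the start. A smaller set of 19 members carried the GAGA repeat GAGAGAG and lacked the E-box. Of all 43 members with that repeat, the other 24 held CAGCTG as well. The strongest 2 of the 19 with a sequence to show were at Trp1 (chr2L:10009954-10010054, plus strand) and CG2246 (chr3R:30600520-30600620, minus strand). They were picked after their values were seen, and capitals mark GAGAGAG or its reverse complement CTCTCTC. The CG2246 summit shown lay 247 bp upstream of its start. A member of higher IDR signal lay 41 bp upstream of the same start and did hold CAGCTG, so this promoter as a whole did not lack the E-box.
Trp1: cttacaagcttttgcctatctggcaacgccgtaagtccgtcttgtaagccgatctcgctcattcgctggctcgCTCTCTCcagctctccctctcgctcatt
CG2246: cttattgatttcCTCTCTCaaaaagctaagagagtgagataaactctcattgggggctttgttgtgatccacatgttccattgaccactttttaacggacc

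The files gave peak lists and no reads, so the depth of each library is unknown. Relative signal below is the authors' peak signal divided by the median of the 5460 strongest peaks of the same list, so that a value of 1 is a typical strong peak of that replicate. Among those strongest peaks the members numbered 502 in replicate 1, 471 in replicate 2 and 543 in replicate 3, or 9.26% ± 0.66 (SD, n = 3) of the peaks. Replicate 2 stood apart from the others in its signal at summits with the E-box or with GAGA repeats, as given with the results on these motifs. Matched within 100 bp to the replicates' strongest lists, 256 of the 524 members were in all 3 replicates, 148 in a pair of them, 105 in a single replicate and 15 in none. In the full, relaxed lists 411 members (78.4%) were found in all 3 replicates, and over these the SD of the relative signal was, at the median, 44.3% of its mean. The crp gene has a single annotated start and so could hold no member, although 16 IDR summits lay within it or within 500 bp of its ends.

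The strongest member was at milt, which encodes an adaptor that links mitochondria to the kinesin motor. Its internal start lies 4536 bp downstream of the most upstream start of the gene, in an intron. The relative signal there was 29.98 in replicate 1, 30.3 in replicate 2 and 31.1 in replicate 3 (30.4 ± 0.55, SD, n = 3). The 3 replicates nearly coincided, and only 7 peaks in the whole IDR list had a higher signal. The most upstream start of milt had an IDR summit of relative signal 0.54, against 35.5 at the internal start in the same list.

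CG8520, of which the sources used here give no function, was next, with relative signals of 26.6, 26.5 and 36.2 in replicates 1, 2 and 3 at a start 630 bp into the gene. PAPLA1, a phospholipase that acts on phosphatidic acid, gave 17.8, 17.5 and 22.8. The internal start of lute, 5947 bp into the gene, gave 16.9, 18.5 and 19.3. These members were high in every replicate, and in each of these genes replicate 3 gave the highest value. At NTPase, a nucleoside triphosphate hydrolase, the values were 12.8, 16.8 and 14.3, and here replicate 2 was the highest.

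Several strong members were at genes of cell signalling and cell shape. Mob2, a partner of NDR family kinases, had relative signals of 13.4 in replicate 1, 7.29 in replicate 2 and 22.0 in replicate 3, the widest spread among the 20 strongest (14.2 ± 7.38, SD, n = 3). Lar, a receptor tyrosine phosphatase that guides axons, gave 10.7, 12.4 and 13.5. Orai, the pore of the store-operated calcium channel, gave 7.85, 12.3 and 10.6 at a start 7420 bp into the gene. Each of these values lay far above the median peak of its list. The start 9792 bp into Tm1, which encodes tropomyosins that coat actin filaments, gave 9.91, 15.4 and 11.6 although no CAGCTG lay within 50 bp of the summit. The gene bs, the fly serum response factor that shapes terminal tracheal cells and wing intervein, gave 7.20, 11.2 and 11.2.

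Genes of metabolism, DNA topology and translation were among the remaining named members. Pfk, the phosphofructokinase of glycolysis, gave 12.6, 4.58 and 14.5, so that replicate 2 was well below the other replicates. Sam-S, which makes the methyl donor S-adenosylmethionine, gave 8.30, 7.97 and 10.5. Top1, the type I topoisomerase that relaxes DNA ahead of polymerases, gave 11.3, 9.93 and 12.2 at a start 4112 bp into the gene. Replicates differed little at both genes. PEK, the kinase that curbs translation under endoplasmic reticulum stress, gave 9.31, 9.63 and 13.3, and eRF3, a translation termination factor, gave 7.66, 7.61 and 10.5. The other members of this set, at CG33144, CG34310, CG7692, primo-1 and slv, had means over the replicates of 11.3 to 14.8. Of the 20 peaks, 17 held CAGCTG, and those at CG7692, Tm1 and slv did not.

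**Figure D1:**
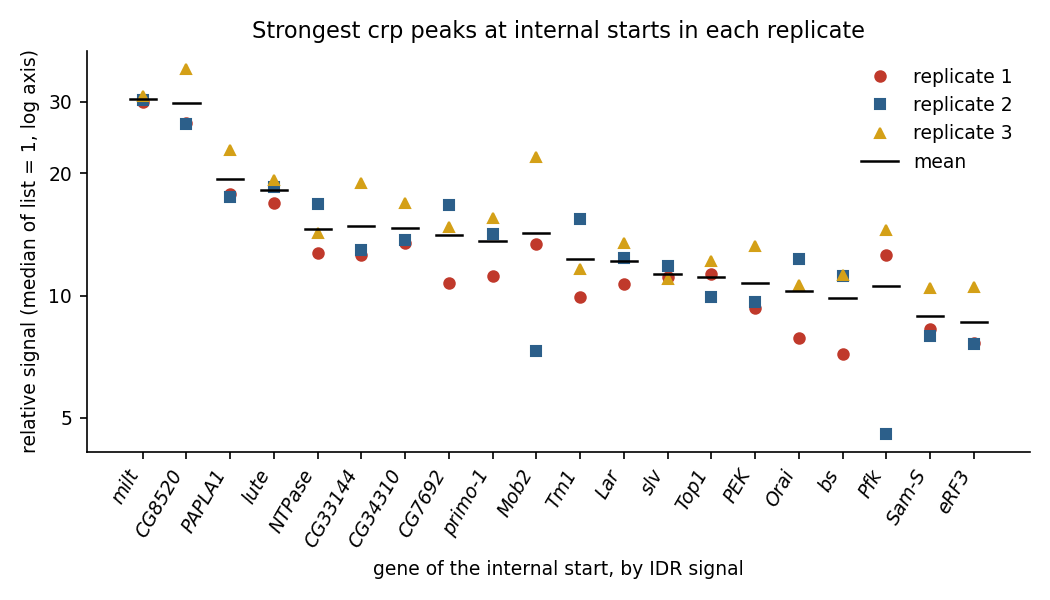
Relative signal (log axis, median of the strongest peaks of each list = 1) of the 20 strongest internal-start peaks found in all 3 replicates, ordered by IDR signal; symbols are replicates and bars their mean. The 3 values at milt lie between 29.98 and 31.1, whereas Mob2 spans 7.29 to 22.0 and Pfk 4.58 to 14.5.

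Within genes, members lay a median of 3374 bp from the most upstream start (interquartile range 1293 to 10856 bp, full range 515 to 160100 bp), and 143 (27.3%) lay more than 10000 bp into the gene. The 5 farthest were at Ten-a, a teneurin of synaptic partner matching, at 160100 bp, CG32816 at 135925 bp, dnc, the cyclic AMP phosphodiesterase, at 118841 bp, Svil, the fly supervillin, at 116883 bp, and mtgo at 112081 bp. These far members were mostly weak. Ten-a had relative signals of 0.45, 0.69 and 0.59 in replicates 1, 2 and 3, and dnc had 1.29, 2.64 and 1.00. Just inside the 500 bp limit of the rule were CG14480 at 515 bp (relative IDR signal 9.97) and l(3)L1231 at 519 bp (0.99). The nearest peaks outside it were akirin at 497 bp (5.20) and Galk at 497 bp (4.46).

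Of the 476 starts at which members lay, 398 (83.6%) lay in an intron of a transcript from a more upstream start, 72 (15.1%) in an untranslated exon and 6 (1.26%) in a coding exon. Transcripts from 264 of these starts (55.5%) shared an annotated start codon with a transcript from a more upstream start, and 212 (44.5%) used other start codons. Internal starts without an IDR summit within 500 bp had nearly the same composition. Of these 2969 starts, from which divergent promoters were not left out, 80.7% were intronic, and at 57.8% a start codon was shared. The difference was not tested.

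In 88 genes there were several member summits. Some of these were neighbours at the same start, as at Nedd4 (461 and 260 bp upstream) and Orc3 (33 and 234 bp upstream). Several summits thus need not mean several bound starts, and whether such neighbours are separate sites was not tested. Rtnl1, the fly reticulon of the tubular endoplasmic reticulum, held 5, at 3 of its 7 starts. Its summit 12339 bp into the gene had a relative IDR signal of 2.88, the one at 4792 bp had 0.94, and the 3 around the start at 9350 bp had 0.51 to 0.58. The genes with 4 members each were larp, an RNA-binding protein of the La-related family, bbx, an HMG-box protein, SNF4Agamma, the gamma subunit of the AMP-activated kinase, and Cpr, the reductase that feeds electrons to cytochromes P450. At larp the starts at 899, 5222 and 10176 bp carried summits of 11.1, 1.35 and 3.44, with a further summit of 0.53 beside the middle start. The 11.1 summit of larp was matched in replicates 1 and 2 but not in replicate 3. In all of these genes the strongest summit exceeded the weakest of the same gene several times over. Members of the same gene share their locus and are not independent.

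Genes with more annotated starts more often held a member. Each further internal start adds a window in which a member can be counted, so the shares below give no chance per start. Genes with a start more than 500 bp downstream of the most upstream one, which alone could hold a member, numbered 2171, and 411 of them (18.9%) held at least 1. Among genes with 2 starts the share was 11.3% (130 of 1147, 95% Wilson interval 9.63 to 13.3), with 3 starts 20.8% (124 of 596), with 4 starts 28.2% (68 of 241), with 5 or 6 starts 43.6% (61 of 140) and with 7 or more 59.6% (28 of 47, 45.3 to 72.4). Genes with a member were also longer, with a median of 13122 bp against 8386 bp for eligible genes without one. Their median number of starts was 3, against 2. By chromosome arm, 116 members (22.1%) were on X, which held 17.2% of all IDR peaks, a difference that was not tested.

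Summits of members were spread farther from the start than those of first-start promoters, the 1966 IDR peaks within 500 bp of a gene's most upstream start or of a start no more than 500 bp from it, without a gene on the opposite strand. The median summit lay 148 bp upstream of the internal start, against 42 bp upstream of the first start. Within 50 bp of the start lay 93 members (17.7%) and 846 first-start summits (43.0%), where an even spread over the window would put 10.1%. Of the members, 160 (30.5%) lay within 100 bp, against 20.1% for an even spread and 61.0% for first-start summits. The side of the start was also uneven. Of the members off the start base itself 442 of 523 (84.5%) lay upstream, and of first-start summits 1508 of 1957 (77.1%), a difference of 7.46 percentage points (two-sided Fisher's exact test over peaks, adjusted p = 3.8e-04). In the 3 replicates the difference was 8.42, 5.04 and 11.5 points (8.32 ± 3.23, SD, n = 3). It did not pass the test when replicate 1 was left out (5.28 points, Fisher's exact test, adjusted p = 0.0636). That list held the summits of replicate 2 that were matched in replicate 3.

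**Figure D2:**
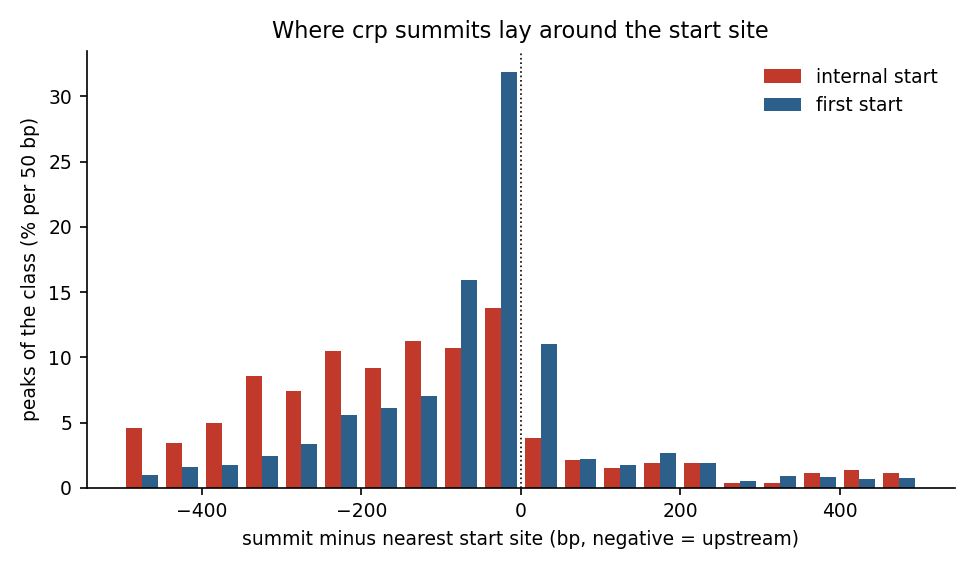
Distance of the summit from its nearest start site in 50 bp steps (negative is upstream), as a percent of the 524 internal-start peaks (red) and 1966 first-start peaks (blue). First-start summits pile up in the 50 bp upstream of the start (31.9%), whereas internal-start summits have 13.7% there and are spread over the upstream side.

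Binding at internal starts was weaker at the top of the range than binding at first starts. The strongest quintile of the IDR list, which is 20% of all peaks by construction, held 62 members (11.8%) and 468 first-start peaks (23.8%), a difference of -11.97 points (Fisher's exact test, adjusted p = 2.2e-09). The difference was -10.7, -12.8 and -10.2 points in replicates 1, 2 and 3 (-11.2 ± 1.36, SD, n = 3). Against first-start peaks of genes that also have an internal start it was smaller, at -6.59 points (Fisher's exact test, adjusted p = 0.0140). Medians were closer. The median relative IDR signal was 0.98 at members, 1.13 at first starts, 1.65 at divergent promoters, where 2 genes start back to back, and 0.72 at intronic peaks outside promoters. In the replicate lists the median of members was 0.95, 0.92 and 0.94, below that of first starts in each (1.09, 1.17 and 1.08).

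The gap differed between distances of the summit from the start, and why was not tested. Within 100 bp of the start 26.3% of members and 32.3% of first-start summits were in the strongest quintile, and from there to 250 bp the shares were 5.82% and 12.98%. From 250 to 500 bp they were 5.14% and 6.23%. With these 3 distance classes held apart, a stratification chosen after the data were seen, the odds of a member being in the strongest quintile were 0.66 of those of a first-start peak (Mantel-Haenszel odds ratio, 95% interval 0.49 to 0.89).

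Members recurred in all 3 replicates less often. Over all IDR peaks 53.2% were matched in the strongest list of every replicate, whereas 256 of 524 members (48.9%) and 1151 of 1966 first-start peaks (58.5%) did (Fisher's exact test, adjusted p = 1.97e-04). Within quintiles of signal the odds ratio was 0.75 with a 95% interval of 0.56 to 1.01, and within distance classes it was 0.89 with an interval of 0.73 to 1.09, both of which include 1. The difference also failed the test against first-start peaks of genes that have an internal start (-3.78 points, Fisher's exact test, adjusted p = 0.367).

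The AP-4 E-box CAGCTG lay within 50 bp of 195 of 524 member summits (37.2%, 95% Wilson interval 33.2 to 41.4), against 28.6% of all IDR peaks. It lay at 657 of 1966 first-start summits (33.4%), and this difference of 3.796 points did not pass the test (Fisher's exact test, adjusted p = 0.150). In the replicate lists the members' share was 34.1%, 27.4% and 42.2% (34.5% ± 7.40, SD, n = 3), and its difference from first starts was 5.56, -2.52 and 5.84 points. Replicate 2 thus pointed the other way, and without it the difference was 6.92 points (Fisher's exact test, adjusted p = 0.0302). It was 1.55 points without replicate 1 and 0.18 without replicate 3. The list without replicate 1 held summits of replicate 2, and the other leave-out lists held summits of replicate 1. With a promoter window of 250 bp the difference was 8.27 points and passed (Fisher's exact test, adjusted p = 0.00519). Compared with the other classes the members' share was higher. Divergent promoters had the site at 22.9% of summits, 14.3 points fewer (Fisher's exact test, adjusted p = 2.2e-09), with 16.3, 6.88 and 16.7 points in the replicates. Intronic peaks outside promoters had it at 251 of 993 (25.3%), 11.9 points fewer (Fisher's exact test, adjusted p = 4.63e-06), and the replicate values were 11.4, 15.0 and 0.89 points, so that replicate 3 alone showed almost none of it.

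The site was centred on the summit. In windows of the same width 500 bp away, CAGCTG was in 29 (5.53%) on the side of lower coordinates and in 18 (3.44%) on the other. It was at the summit alone in 189 members and in the lower flank alone in 23 (exact two-sided McNemar test, p = 1.24e-33). Where the site was present, its nearest copy was centred 16.5 bp from the summit at the median, and at 115 of 195 members (59.0%) within 20 bp. Several copies were present at 24 members (4.58%), against 63 first-start summits (3.20%). Of the 219 sites at members, 32 (14.6%) were flanked by A and T on both sides as ACAGCTGT, near the 15.6% of the 724 sites at first starts and set beside 3117 of all 62338 sites in the genome.

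At equal strength, members held the E-box more often than first-start peaks. In the strongest quintile both classes had it at 75.8% and 75.9% of summits. In the following quintiles members had 43.1%, 32.1%, 27.6% and 23.4%, and first-start peaks had 36.03%, 16.5%, 14.1% and 11.8%. The 2 classes were level at the top, and in the weakest 3 quintiles their Wilson intervals did not overlap. From the second quintile on, members had about the share that intronic peaks had or more (43.9%, 21.3%, 20.5% and 18.6%). Over the 5 quintiles the odds of a site were 1.74 times higher at members (Mantel-Haenszel odds ratio, 95% interval 1.39 to 2.18). The odds ratio was 1.84, 1.29 and 1.82 in the lists of replicates 1, 2 and 3 (1.65 ± 0.32, SD, n = 3). With distance classes held apart as well, a choice made after seeing the data, it was 1.91 (1.51 to 2.41). Against first-start peaks of genes that also have an internal start it was smaller, at 1.47 (1.09 to 1.98). Over all alternatives it ran from 1.43 without replicate 1 to 2.06 with a promoter window of 250 bp.

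**Figure D3:**
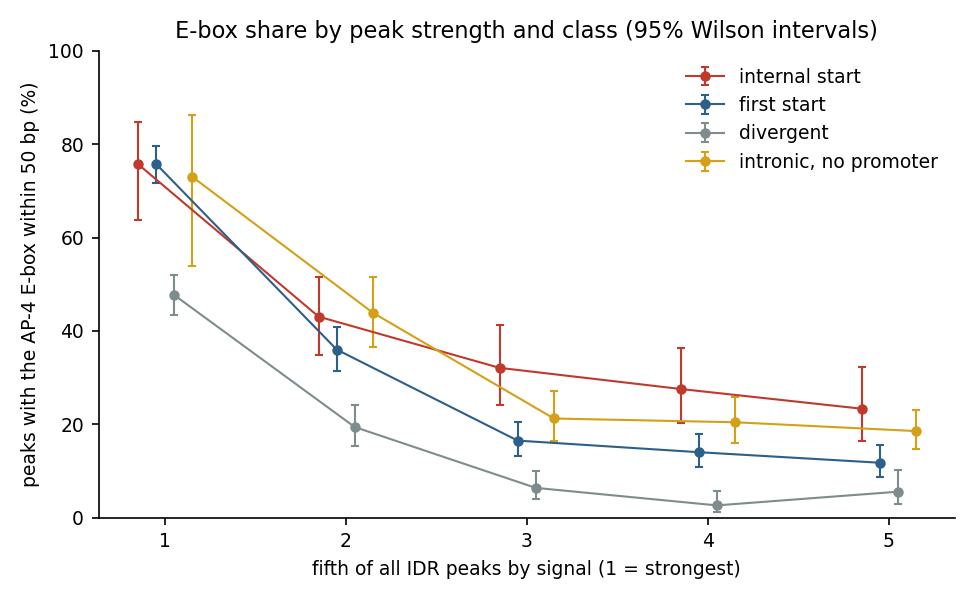
Percent of peaks with the AP-4 E-box within 50 bp of the summit in each quintile of the IDR list by signal (1 is the strongest), for internal starts, first starts, divergent promoters and intronic peaks; bars are 95% Wilson intervals. Internal and first starts meet at 75.8% and 75.9% in the strongest quintile, and internal starts are higher in the weakest 3 quintiles.

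Closer to the start the members held the E-box more often. It was at 81 of 160 members within 100 bp of the start (50.6%, 95% Wilson interval 43.0 to 58.3), at 65 of 189 members up to 250 bp away (34.4%) and at 49 of 175 members farther off (28.0%, 21.9 to 35.1). For first-start summits the shares were 40.8%, 20.3% and 24.5%. Windows of the same width centred 50 bp upstream of start sites, whether bound or not, gave the base rate. CAGCTG was in 7.64% of such windows over all start sites, in 18.7% of those at members' starts, in 20.7% of those at first starts with a first-start peak, in 4.51% at internal starts without an IDR summit and in 3.39% at first starts without one. Divergent promoters were left out of the bound starts alone.

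Members with the E-box had more signal in the IDR list. Their median relative signal was 1.38, against 0.81 for the 329 members without the site and 3.86 for the 24 members with several copies. The replicates disagreed on this. Over the 173 members with the site that were in all 3 full lists, the median relative signal was 1.38 in replicate 1, 0.81 in replicate 2 and 2.16 in replicate 3. Over the 238 members without it, the medians were 0.79, 0.94 and 0.70. Replicate 2 gave the lowest of the 3 values at 124 of the 173 members with the site (71.7%) and at 65 of the 238 without it (27.3%). The same held in kind at first starts, where it was lowest at 61.3% of peaks with the site and 35.8% of peaks without. So members with the site were stronger than those without it in replicates 1 and 3 and weaker in replicate 2; what set that library apart was not tested.

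Several motifs of promoter types differed in share between members and first-start peaks. Of the 18 Fisher's exact tests between classes 11 (61.1%) passed at an adjusted p of 0.05, among them 6 of the 13 motifs tested against first starts. The DRE core TATCGATA lay within 50 bp of 7 members (1.34%) and 172 first-start summits (8.75%), a difference of -7.41 points (Fisher's exact test, adjusted p = 2.51e-10) that was -5.64, -7.03 and -5.98 points in the replicates (-6.22 ± 0.72, SD, n = 3). Against first-start peaks of genes that also have an internal start it was -3.45 points (Fisher's exact test, adjusted p = 0.00905), and with the core sought within 25 bp of the summit -4.45 points. The M1BP motif GGTCACACT was at 3 members (0.57%) and 82 first-start summits (4.17%, Fisher's exact test, adjusted p = 1.23e-05). Both motifs were rarer at members in each replicate. The short core CGATA, which is contained in TATCGATA and was counted on either strand, was at 13.7% of members and 32.5% of first-start summits (Fisher's exact test, adjusted p = 1.43e-17), and where no TATCGATA was present it was still at 12.4% against 23.7%.

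GAGA repeats showed the opposite. GAGAGAG, on either strand, lay at 43 members (8.21%) and 54 first-start summits (2.75%), a difference of 5.46 points (Fisher's exact test, adjusted p = 5.3e-07). The replicate lists gave 5.06, 3.59 and 6.14 points (4.93 ± 1.28, SD, n = 3). Of the 43 members, 24 also held CAGCTG, which 195 of all 524 members held (37.2%). Over the 37 of the 43 in all 3 full lists the median relative signal was 1.38 in replicate 1, 0.74 in replicate 2 and 2.37 in replicate 3. Replicate 2 was the lowest at 29 of these 37 (78.4%). At first starts with GAGAGAG it was the lowest at 30 of 42 (71.4%). Holding signal quintiles apart, the odds ratio was 3.04 for GAGAGAG (2.00 to 4.63) and 0.15 for TATCGATA (0.07 to 0.32). With distance classes held apart the values were 2.34 (1.53 to 3.57) and 0.24 (0.11 to 0.53). None of these intervals included 1. CACGTG, the E-box of Myc and related factors, was at 2 members against 37 first-start summits (Fisher's exact test, adjusted p = 0.0172), and GGTATTTT was at 11 against 89 (adjusted p = 0.0191). The TATA box TATAAA was at 12.98% of members and 11.04% of first-start summits. It did not pass the test, nor did the Zelda site CAGGTAG (0 members and 6 first-start summits), the other E-boxes CAGATG and also CATATG, the initiator core TCAGT or the GATA site AGATAA (Fisher's exact tests, adjusted p from 0.119 to 0.912).

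The same differences, smaller in points, were present between starts of the 2 kinds without a summit. In windows of the same width centred 50 bp upstream, TATCGATA was at 0.71% of internal starts without an IDR summit and 3.83% of first starts without one, against 1.68% and 10.7% of the bound starts of each kind. GGTCACACT was at 0.20% and 1.43% of starts without a summit, and at 0.42% and 4.11% of bound ones. GAGAGAG was at 5.39% of internal and 3.07% of first starts without a summit, and at 14.5% and 4.00% of bound ones. Over all start sites the shares were 5.19% for TATCGATA, 1.95% for GGTCACACT and 3.47% for GAGAGAG. In both the bound and the other starts the DRE and M1BP motifs were thus rarer and GAGA repeats more frequent at internal starts. These shares were not tested against each other. Divergent promoters were left out of the bound starts but not of the starts without a summit, so the sets also differ in that.

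**Figure D4:**
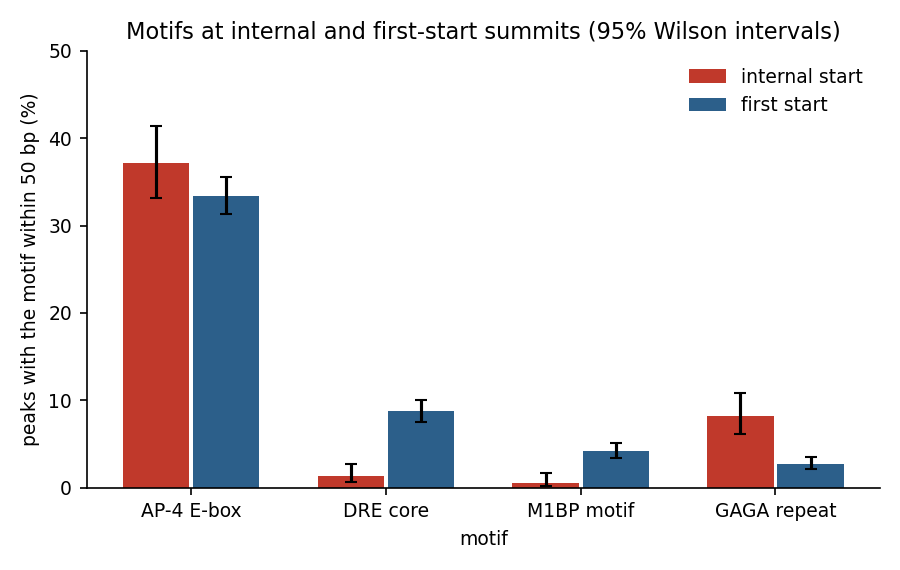
Percent of internal-start (red) and first-start (blue) summits with each motif within 50 bp; bars are 95% Wilson intervals. The E-box shares (37.2% and 33.4%) lie close together, the DRE core (1.34% and 8.75%) and M1BP motif (0.57% and 4.17%) are rarer and the GAGA repeat (8.21% and 2.75%) more frequent at internal starts.

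Most genes with a member had no separate summit at their most upstream start. An IDR summit that was not itself a member lay within 500 bp of that start in 149 of the 411 genes (36.3%), and 262 (63.7%) had none. The relaxed pooled list had a peak there in 164 of the 262. For comparison, 32.9% of all 2171 eligible genes had a summit at the most upstream start when members were counted too. Counted in that way it was 162 of 411 genes with a member (39.4%) and 553 of 1760 eligible genes without one (31.4%), a difference of 8.00 points (two-sided Fisher's exact test over genes, p = 0.00241). With member summits not counted at the most upstream start, a choice made after seeing the data, the difference was 4.89 points and did not pass (Fisher's exact test, p = 0.0608), since in 13 genes only a member summit lay near the most upstream start. With member summits counted, the difference was 20.9 points with a promoter window of 1000 bp and 15.6 points among the strongest 2500 IDR peaks. It was 3.55 points, which did not pass, with an internal distance of 2000 bp. A window wider than the 500 bp internal distance lets more member summits themselves count at the most upstream start, so the 20.9 points cannot be read as separate binding there.

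For the 149 genes bound at both, the first-start summit was the strongest IDR summit within 500 bp of the most upstream start, the gene's own members aside. Summits at divergent promoters were not left out, so this set is wider than the first-start peaks defined above. The internal summit had the higher IDR signal in 66 of the 149 genes (44.3%), which did not pass the exact two-sided binomial test (p = 0.190). Between matched summits it was the higher in 58 of 117 genes in replicate 1, 49 of 131 (37.4%) in replicate 2 and 61 of 126 in replicate 3. The call changed with the choices made. The share was 31.4% without replicate 1 (exact binomial p = 0.00255), 34.8% without replicate 3 (exact binomial p = 0.0154) and 40.8% with an internal distance of 1000 bp (exact binomial p = 0.0487), each with the first start the stronger in more genes. The signals compared were those of replicate 2 in the list without replicate 1, and those of replicate 1 in the list without replicate 3. The median ratio of internal to first signal was 0.87. It was more than 2 in 38 genes and under 0.5 in 49. Of the 95 genes in which both summits were matched in all 3 replicates, the internal one was stronger in every replicate in 24, the first one in every replicate in 36, and the order differed between replicates in 35. milt stood at the internal end, with a ratio of 66.2, but its first-start summit was matched in replicate 2 alone (ratio 63.6). At Top1 the internal summit was 26.0 times the first, with a match in replicates 2 and 3 (15.5 and 35.1). The ratio was 15.7 at CG33144, 9.49 at PEK and 7.005 at PAPLA1. At the other end of the range were FoxK, a forkhead factor, with a ratio of 0.04, and Pax, the focal adhesion protein paxillin, with 0.05. These last names were taken from the extremes after the values were seen.

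Within such genes the stronger start was usually the one with the E-box. CAGCTG was at the internal summit alone in 57 genes, at the first-start summit alone in 22, at both in 18 and at neither in 52. In 60 of the 79 genes with the site at a single summit that summit was the stronger (75.9%, exact two-sided binomial test, p = 4.19e-06), a test added after the data were seen. The internal summit was the stronger in 40 of 57 such genes and the first-start summit in 20 of 22. By replicate the share was 45 of 58 (77.6%), 43 of 69 (62.3%) and 60 of 70 (85.7%), or 75.2% ± 11.9 (SD, n = 3). Replicate 2 was again the lowest, and its share was still above even.

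**Figure D5:**
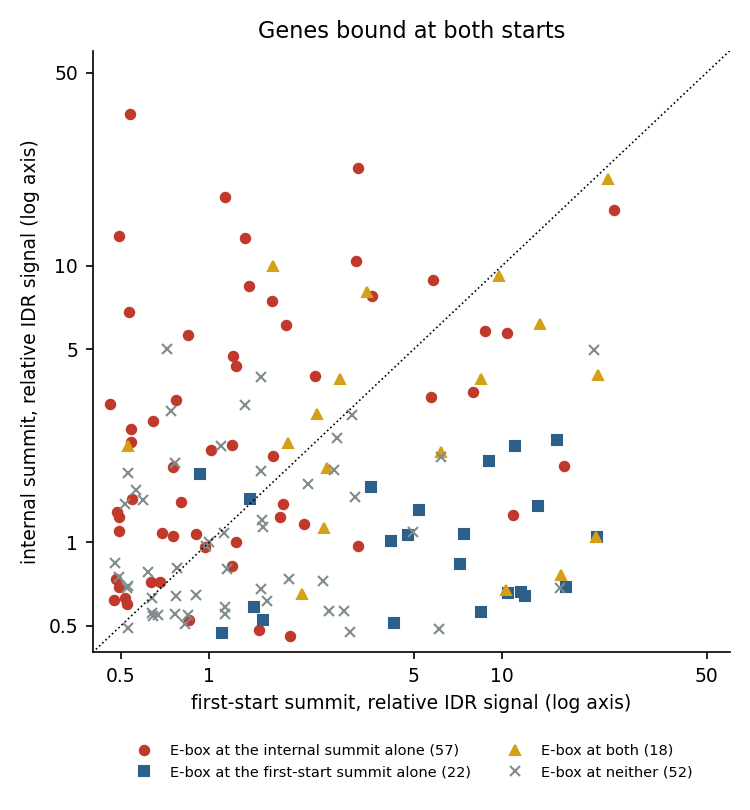
Relative IDR signal of the strongest internal summit against that of the strongest first-start summit in the 149 genes bound at both (log axes, dotted line is equality), by where the E-box lay. Summits at divergent promoters were not left out of the first-start summits here. Genes with the E-box at the internal summit alone lie mostly above the line (40 of 57) and those with it at the first-start summit alone mostly below it (20 of 22).

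Gene groups were read from 18 lists of known genes, each beside the 18.9% of all eligible genes that held a member. Across the lists 88 of 305 eligible genes (28.9%) held one, so listed genes as a whole were above that level, and the counts per list are small. No list was tested. The list of mitochondrial and energy metabolism genes had the highest share among lists with more than 5 eligible genes, with 13 of 23 (56.5%, 95% Wilson interval 36.8 to 74.4). Besides milt and Pfk it included Idh, the NADP-dependent isocitrate dehydrogenase, with relative signals of 5.57, 3.18 and 6.64 in replicates 1, 2 and 3. The others were Lpin, Pink1, Pgk, Ald1, Gs2, PyK, sesB, ACC, kdn and Men, with relative IDR signals from 0.46 to 2.24. They include the glycolytic enzymes Pgk, Ald1 and PyK and the fatty acid enzyme ACC.

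Transcription factors other than nuclear receptors had a member in 15 of 37 eligible genes (40.5%). The strongest was Mondo, a sugar-responsive basic helix-loop-helix factor, at 4.67, 1.36 and 5.74, followed by ush, the Friend of GATA cofactor, at 3.71, 1.43 and 6.05 and by cnc, the Nrf2 counterpart, at 1.59, 0.84 and 2.31. All 3 were lowest in replicate 2. Trl itself, which encodes the GAGA factor, was on the list of bound genes with a relative IDR signal of 1.00. Chromatin regulators had 5 of 13 (38.5%), led by ash2, a subunit of H3K4 methyltransferase complexes, at 4.04, 1.25 and 5.39. The Polycomb gene ph-p, at 2.21, 5.64 and 1.80, and the corepressor gene gro, at 0.92, 1.94 and 0.71, had the reverse order, with the highest value in replicate 2 and no E-box at the summit. Nuclear receptors had 3 of 15. Among them Eip75B, an ecdysone-induced receptor, was at 9.06, 4.53 and 10.5 at a start 38664 bp into the gene, and Hnf4 and usp were weaker and not found in all 3 lists.

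Signalling lists varied. Kinases and phosphatases had a member in 10 of 33 eligible genes (30.3%), the strongest at Doa, a LAMMER kinase that acts on splicing factors, with 5.28, 4.10 and 4.23. At gish, a casein kinase, the values were 1.89, 3.48 and 1.68, and at sgg, the fly GSK3, 1.31, 2.58 and 1.26. In both genes replicate 2 was the highest. Small GTPases and their regulators had 6 of 17 (35.3%), with RhoGEF3 at 6.26, 6.76 and 6.08, steady across replicates, and RapGAP1 and trio lower. Genes of the Notch, EGFR, insulin, Wnt, Hedgehog, Dpp and Hippo pathways had 2 of 18 (11.1%), neur, a ubiquitin ligase of Notch signalling, at 2.21, 2.54 and 3.58, and spi, an EGFR ligand. The strongest summit of spi was matched in replicates 1 and 2, and a weaker member at the same start in replicates 2 and 3 (1.13 and 0.65).

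Structural and RNA lists fell in between. Cytoskeleton and motor genes had a member in 11 of 36 eligible genes (30.6%), after milt and Tm1 most strongly at Fhos, a formin, with 1.42, 2.86 and 0.82. Cell adhesion and axon guidance genes had 7 of 21 (33.3%), with Lar far above unc-5 and Ten-a. RNA-binding and splicing factors had 7 of 31 (22.6%), led by msi (Musashi) at 3.76, 4.64 and 7.11, at a start 78357 bp into the gene, and by bru2 at 3.58, 2.84 and 6.69; the translational repressor gene pum followed at 1.15, 0.52 and 1.33. Membrane traffic genes had 4 of 16. The strongest of them, Rab5, had a relative IDR signal of 1.45 but was found in replicate 1 alone, at 0.86. Clc gave 0.52, 0.71 and 0.35, and AP-1gamma was missing from replicate 3.

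The lists of organs and of ion channels are short, so that their shares are loosely bounded. Ion channel and synapse genes had none among 17 eligible genes (95% Wilson upper bound 18.4%). Tracheal development genes had 3 of 12, trh, shot and stumps, and no relative signal at them was above 1.201. For the muscle list the count was 3 of 11 (27.3%), with Mef2, the muscle differentiation factor, at 0.99, 0.78 and 1.44 and rols below it. Autophagy and lysosome genes had 2 of 5, Atg8a at 1.35, 1.64 and 2.60 and Vha68-2, which was missing from replicate 2. Haemocyte genes had 1 of 6 (ush), glial genes 1 of 4 (loco, at 1.23, 0.45 and 2.08), and gut endoderm genes 0 of 2.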

How the data were processed

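Chromatin of 3 replicates of 1 group was measured by ChIP-seq with an antibody against GFP. For each replicate and for the pool the authors deposited a relaxed peak list, and for the series a list that passed their irreproducible discovery rate (IDR) analysis. Each peak carries a signal value, deposited by the authors on the scale of their peak caller, and another deposited column (unit other) holds the summit offset from the peak start in bases. No source used here gives the aligner, the caller, its settings or the IDR threshold. The signal moves with read depth, which is unknown, so signals were compared only within a list or relative to its median. Lists on the other build, dm3, were not used.

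Gene models were those of Ensembl release 115 and sequence that of RefSeq, both on dm6; no peak or gene ran beyond the end of a chromosome arm of that sequence. The annotation held 13968 protein-coding genes. A start shared by 2 genes was taken as first where it was the most upstream start of either. Motifs were counted on both strands when they lay whole within 50 bp of the summit. Classes were compared by Fisher's exact test with Benjamini-Hochberg adjustment over 18 tests at 0.05, and by Mantel-Haenszel odds ratios within quintiles of IDR signal. Peaks, not replicates, are the units of these tests, several can lie in the same gene, and Wilson intervals (95%) cover counting error only. Replicate values are mean ± SD over the strongest 5460 peaks of each replicate, and a summit within 100 bp was shared. Members and gene lists were chosen with earlier results of these data known. Of the listed names, 6 were matched through RefSeq synonyms and 4 matched no gene. Named genes were crp, those of the 20 strongest members found in all replicates, the 5 genes with most members, the 5 farthest members, up to 3 per list and those next to the distance limit. Alternatives covered windows, distances, number of peaks, gene models, strata, summits per gene and leaving out each replicate. A leave-out list held the strongest summits of the lower-numbered remaining replicate that were matched in the other remaining one. Its signals were those of the lower-numbered replicate alone. Classification and motif counts were tested on simulated data, with summits placed near real starts. There 3994 of 4000 simulated summits got the class that a separate coding of the same rule gave. The other 6 lay at starts shared by 2 genes. Tests ran in scipy 1.17.1 and statsmodels 0.14.6, under Python 3.11.15; numpy 2.4.6 was used for arrays and matplotlib 3.10.9 for plots.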

Additional observations from a re-analysis of the deposited data

How the results depend on the processing

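Of 118 values recomputed under alternatives for 9 results, 105 kept their direction and their side of the threshold, or stayed within 1.5 times for the number of members, and none changed direction. Results that did not pass in the main setting and again did not pass count among the 105. The lists of single replicates are not among the 118, and in that of replicate 2 the E-box difference reversed (-2.52 points). The 105 also include the RefSeq gene models and the transcripts with a coding sequence. These 2 settings returned the main values, except for binding at the most upstream start with RefSeq (8.07 points), and so add little to the count. The number of members was 328 with an internal distance of 2000 bp. It was 298 to 367 when the IDR list was replaced by lists that left out a replicate. Those lists took summits and signals from the lower-numbered remaining replicate and used the other only to filter them. The E-box difference from first starts passed with a promoter window of 250 bp (8.27 points, adjusted p = 0.00519, Fisher's exact test) and without replicate 2 (range over left-out replicates 0.18 to 6.92). The difference in recurrence did not pass among the strongest 2500 peaks (-2.44 points) or against first-start peaks of genes that have an internal start (-3.78 points). The upstream difference ranged from 5.28 to 9.39 points over left-out replicates. The difference in binding at the most upstream start did not pass with an internal distance of 2000 bp (3.55 points) or with member summits not counted (4.89 points). The share of genes with the stronger summit at the internal start passed with an internal distance of 1000 bp (40.8%, exact binomial p = 0.0487) and without replicate 1 or 3 (range 31.4% to 47.0%). The cause of these changes was not tested. Adjusted p-values of leave-out lists rest on fewer peaks. No paired analysis was possible because all replicates belong to 1 group. Unknown depth limits how firmly weak peaks and absent summits can be read.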
